A study of Mus musculus with 6 samples.

Results

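Autophagy is the route by which a cell encloses its own material, such as damaged organelles, protein aggregates or microbes, in a double membrane (the autophagosome) and delivers it to lysosomes. The genes described here encode the machinery that starts, builds and loads that membrane. They were chosen by symbol from the deposited count table: every entry whose symbol begins with Atg and a digit, Map1lc3 or Gabarap, the entries Ulk1, Ulk2, Wipi1 and Wipi2, and Sqstm1, Optn, Becn1, Tax1bp1, Nbr1, Pik3c3, Rubcn and Calcoco1. This gave 34 of the 24421 gene entries. Rubcn is in the table only under its older symbol 1700021K19Rik, so it is given beside the 34 and is not counted among them.

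The transcripts are those of monocytes, phagocytes that bone marrow releases into blood, here sorted from the marrow of B6 mice and sequenced as poly(A) RNA. Cells of the treated group received 5 ng of the myeloid growth factor GM-CSF, or granulocyte-macrophage colony-stimulating factor (no volume is stated), for 3 h, and the other group is labelled control, with 3 libraries in each group. The controls are called freshly isolated in one label while another describes medium with or without the cytokine, so time in culture and GM-CSF cannot be told apart if the controls were not cultured. The sources used here do not give the age, sex or number of mice. They also do not say whether replicates were separate mice or cultures, so each p-value reflects only how far these samples differ among themselves, and that spread may be technical.

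In myeloid cells the same machinery also serves defence against microbes and, with some of its parts, the tagging of phagosomes. It works in steps. The ULK kinase complex starts the process. A lipid kinase complex around PIK3C3 and beclin 1 then marks the membrane with a phosphoinositide, PI3P, that WIPI proteins read. ATG9 and ATG2 proteins supply lipid, and 2 ubiquitin-like conjugation systems attach LC3 and GABARAP proteins to the membrane. Cargo receptors tie the load to LC3 and GABARAP. Protein activity, modification and the flow of cargo were not measured here, only transcript levels.

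The libraries held 16643228 to 25232956 reads in genes. Levels are given in CPM, the reads of a gene scaled to a fixed library total of gene reads. Taken across genes (not independent replicates), the Pearson correlation of log2 CPM was 0.990 for GM-CSF replicates 1 and 2, while GM-CSF replicate 3 stood somewhat apart at 0.980 and 0.983. All 8 monocyte markers checked had reads (5 lower, 1 higher). Their summed level was 59388 to 68351 CPM in control and 27417 to 29847 CPM in GM-CSF libraries, mostly from Lyz2. The 8 neutrophil and precursor markers in the table summed to 16005 to 21115 CPM in control and 10820 to 13642 CPM in GM-CSF libraries (4 lower, 1 higher). The summed monocyte and precursor marker RNA thus differed between the groups (exact two-sided permutation p = 0.1 for each sum, the smallest that 3 against 3 libraries can give). Of all genes tested, 64.0% changed at an edgeR adjusted p under 0.05, and the counts of markers should be read beside that share. The part of these marker RNAs in the results below was not tested. B cell markers summed to 59.0 to 69.3 CPM in control and 33.5 to 41.6 CPM in GM-CSF libraries, and basophil and mast cell markers to 4.13 to 6.69 and 13.2 to 18.4 CPM. Dendritic cell markers summed to 83.6 to 89.1 CPM in control and 41.4 to 49.9 CPM in GM-CSF libraries (3 lower, 1 higher). Most of that sum came from Bst2, with a mean of 53.8 CPM over all libraries. Markers of T cells, NK cells and erythroid cells each summed to less than 3 CPM in every library, with the haemoglobin genes Hba-a1, Hba-a2, Hbb-bs and Hbb-bt at 0 reads. Eosinophil markers stayed between 9.12 and 15.2 CPM with Epx at 0 reads, and megakaryocyte markers ran from 1.0 to 16.1 CPM. In such bulk samples, fewer cells of a type and less RNA per cell cannot be told apart.

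The autophagy genes split rather than moving one way, as did the genes tested as a whole. With GM-CSF the LC3 and GABARAP family members Gabarapl1 and Map1lc3a, the cargo receptor genes Sqstm1 and Optn, Atg16l1, Atg13, Atg4b, Atg9b and Wipi2 were higher. Atg4c, Atg14, Atg7, Atg101, Calcoco1, Wipi1, Atg4d and Atg12 were lower. All 34 members passed the filter on low counts, and 17 of them changed at an adjusted p under 0.05 by edgeR's quasi-likelihood test, 9 higher and 8 lower. Over all 11731 genes tested, 64.0% changed, 32.8% higher and 31.2% lower, so the members' share, 17 of 34, lies below that background. Changes of at least 2-fold were found in 2 members that rose and 1 that fell, or 8.82% of members, against 24.5% of all genes tested. The groups' CPM ranges did not overlap in 19 members, against 69.5% of all genes. The median log2 fold change was 0.03 among members and 0.01 among all genes, and the median size of the change regardless of sign was 0.27 and 0.53. With upper quartile scaling, which lowers the median of all genes to -0.11, the split of the members was 8 higher and 13 lower (23.5% and 38.2%), beside 27.8% higher and 36.8% lower among all genes tested.

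**Figure D1:**
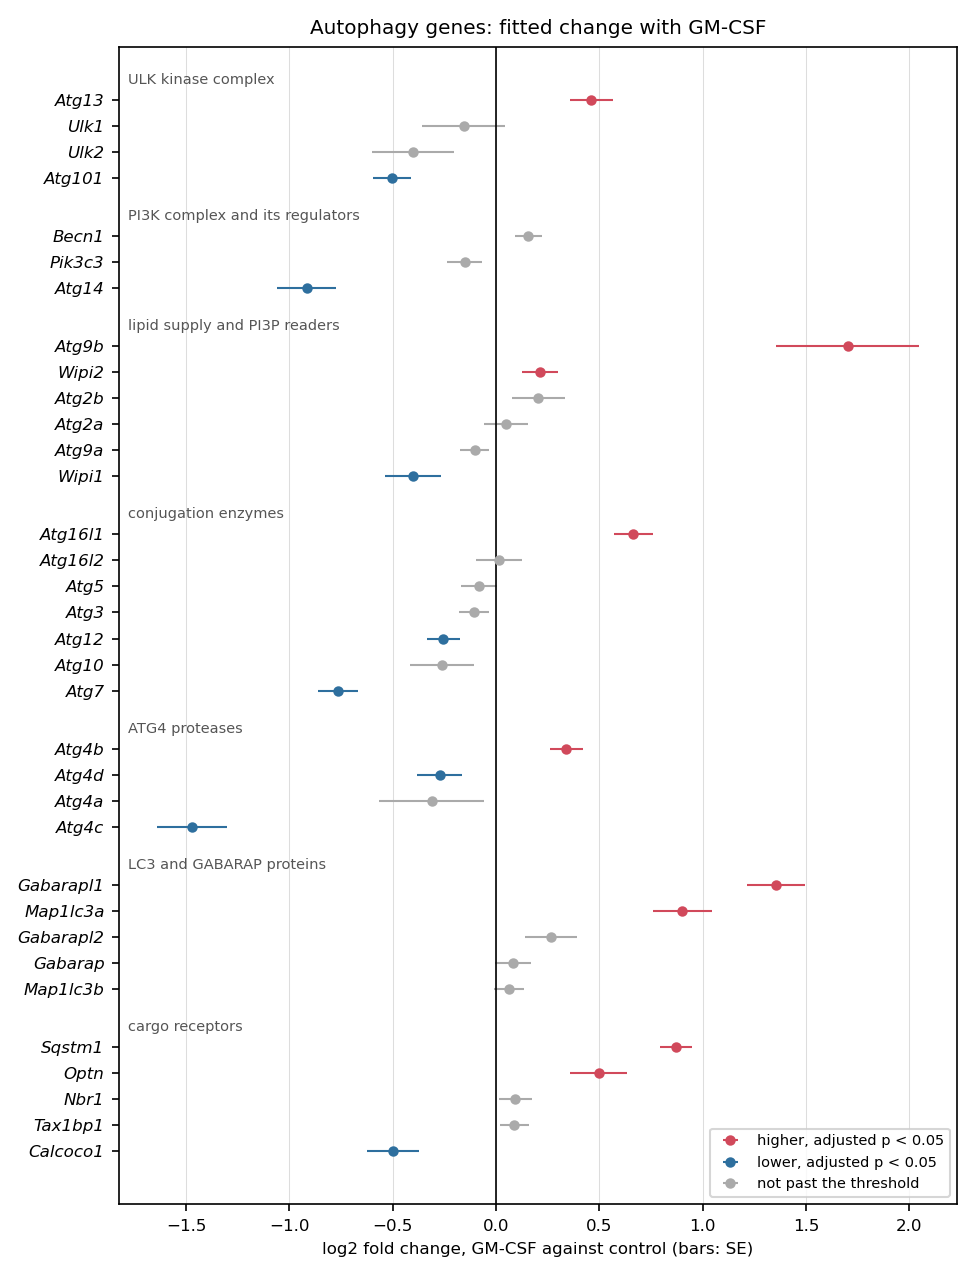
Fitted log2 fold change of each of the 34 autophagy genes with GM-CSF against control, with bars of 1 SE, grouped by role; red genes were higher and blue genes lower at an adjusted p under 0.05, and grey genes did not pass. Atg9b (1.70) and Gabarapl1 (1.36) lie farthest to the right and Atg4c (-1.47) farthest to the left, and 17 genes are grey.

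The LC3 and GABARAP proteins are small ubiquitin-like proteins that become joined to a membrane lipid and recruit cargo receptors. Their 5 genes had positive fitted values (2 rose, none fell, 3 did not pass), but with upper quartile scaling Gabarap (-0.033) and Map1lc3b (-0.052) turned negative. Gabarapl1, on chromosome 6 at 129533160 to 129542346 of GRCm38, stood at 16.1, 19.1 and 20.5 CPM in control replicates 1 to 3 and at 53.6, 49.9 and 38.6 CPM in GM-CSF replicates 1 to 3. Every GM-CSF library was above every control library, and the fitted rise was 2.56-fold (log2 fold change 1.36 ± 0.14, SE; edgeR adjusted p = 8.28e-06). Map1lc3a was at 11.6, 14.5 and 16.7 CPM in control and 27.8, 23.9 and 27.7 CPM in GM-CSF libraries. It also rose without overlap (log2 fold change 0.90 ± 0.14; edgeR adjusted p = 2.30e-04).

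The more abundant family members differed much less between the groups. Gabarap was at 371, 338 and 359 CPM in control and 405, 391 and 332 CPM in GM-CSF libraries, and Map1lc3b, the LC3 form most used as an autophagosome marker, at 274, 294 and 262 CPM and 294, 282 and 288 CPM. The groups overlapped for both genes, with log2 fold changes of 0.084 ± 0.087 (edgeR adjusted p = 0.416) and 0.065 ± 0.072 (0.448). Gabarapl2 was at 36.9, 29.6 and 26.8 CPM in control and 36.0, 39.0 and 36.9 CPM in GM-CSF libraries, where control replicate 1 lay within the GM-CSF range. Its log2 fold change of 0.27 ± 0.13 did not pass (edgeR adjusted p = 0.0883), but without control replicate 1 it was 0.42 and passed.

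As a share of the family's reads per kilobase of exon, Gabarap made up 73.0% ± 1.43 in control and 66.9% ± 1.66 in GM-CSF libraries (SD, n = 3 each). Gabarapl1 went from 3.50% ± 0.478 to 7.70% ± 0.684 and Map1lc3a from 4.58% ± 0.875 to 7.41% ± 0.989. Map1lc3b held 13.9% ± 1.12 and 12.7% ± 1.02, and Gabarapl2 5.05% ± 0.756 and 5.30% ± 0.490. The family thus stayed dominated by Gabarap transcripts in every library. These shares depend on the length used. Per kilobase of the median annotated transcript, the control level of Gabarapl1 (25.8 CPM) lay above that of Map1lc3a (17.3 CPM), the reverse of the order above.

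Cargo receptors carry a motif that binds LC3 and GABARAP and a part that binds ubiquitin or another mark on the load. Of 5 genes, 2 rose, 1 fell and 2 did not pass. Sqstm1 encodes p62, a receptor for ubiquitin-marked aggregates and also a signalling scaffold, and lies on chromosome 11 at 50199366 to 50210827. It was at 254, 298 and 271 CPM in control and 515, 502 and 478 CPM in GM-CSF libraries. The ranges were far apart, the rise was 1.83-fold (log2 fold change 0.87 ± 0.077; edgeR adjusted p = 2.61e-06), and the call held under all 15 alternative settings. Optn, for optineurin, a receptor for mitochondria and bacteria, was at 9.21, 9.83 and 12.03 CPM in control and 15.1, 14.5 and 13.97 CPM in GM-CSF libraries. It rose without overlap (log2 fold change 0.50 ± 0.14; edgeR adjusted p = 0.00906).

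Tax1bp1, whose product serves both as a receptor and as a brake on NF-kB signalling with A20, was at 252, 256 and 250.4 CPM in control and 269, 283 and 252 CPM in GM-CSF libraries. Nbr1, a receptor that works together with p62, was at 71.1, 75.3 and 67.8 CPM and 76.2, 80.0 and 71.5 CPM. Both overlapped between groups and did not pass (log2 fold changes 0.089 ± 0.068 and 0.094 ± 0.082; edgeR adjusted p = 0.274 and 0.332), and with upper quartile scaling both turned slightly negative (-0.028 and -0.023). Calcoco1, a receptor for parts of the endoplasmic reticulum, fell from 22.7 ± 1.66 to 16.01 ± 1.83 CPM (SD, n = 3 each; log2 fold change -0.50 ± 0.13; edgeR adjusted p = 0.00513).

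**Figure D2:**
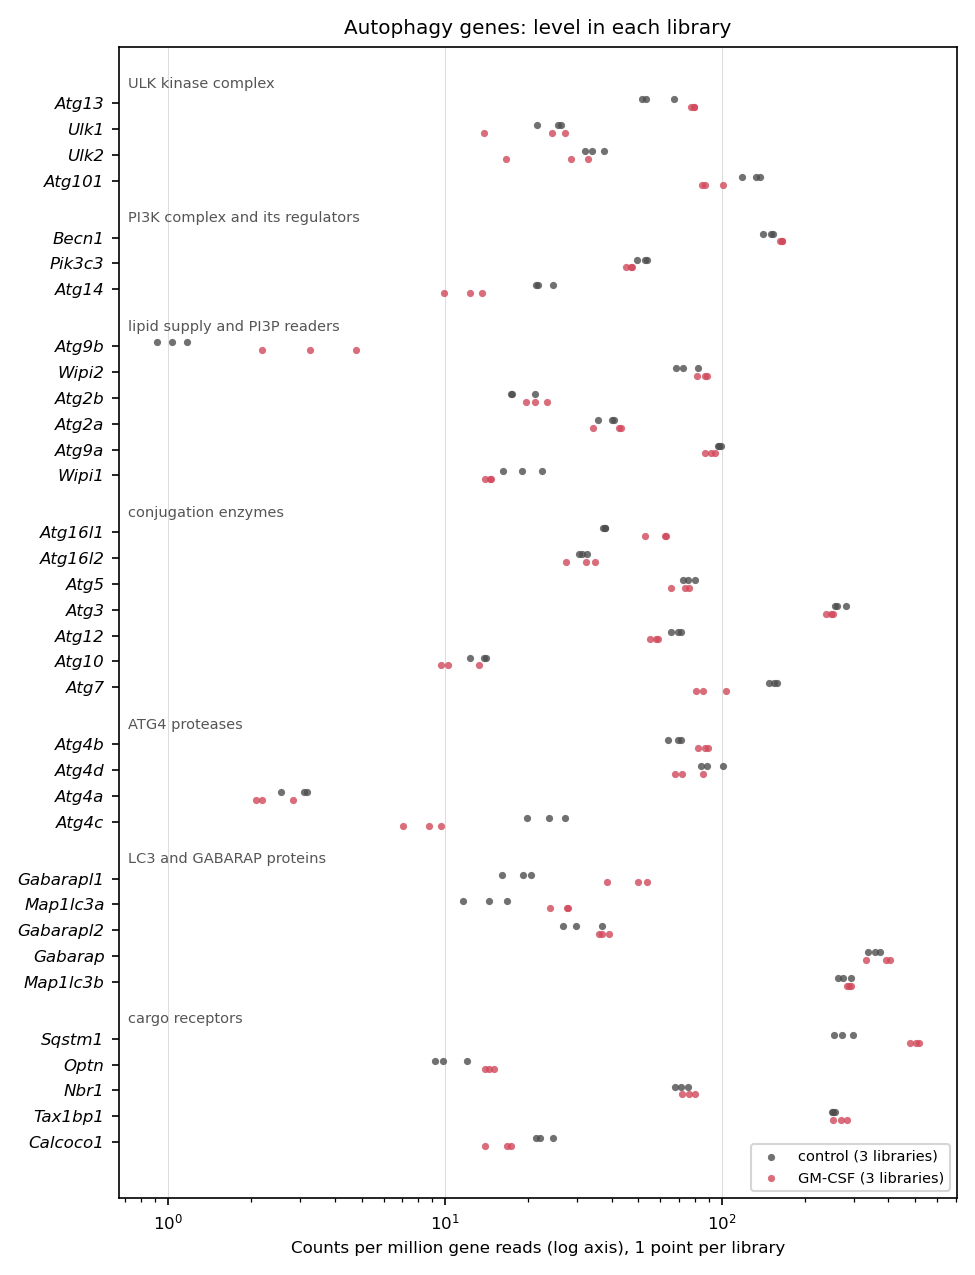
Level of each autophagy gene in every library, in CPM on a log axis, with control libraries in grey and GM-CSF libraries in red, grouped by role. Sqstm1 in GM-CSF libraries (515, 502 and 478 CPM) holds the highest values, Atg9b the lowest, and Ulk1 and Ulk2 show 1 GM-CSF library well below the others.

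The conjugation enzymes act like a ubiquitin cascade. ATG7 is the activating enzyme for both systems, ATG3 hands LC3 and GABARAP to the lipid, ATG10 hands ATG12 to ATG5, and the ATG12-ATG5 conjugate works with ATG16L1 to set the site. Of these 7 genes, 1 rose, 2 fell and 4 did not pass. Atg7 was at 148, 158 and 154 CPM in control and 80.4, 85.3 and 103 CPM in GM-CSF libraries. All GM-CSF libraries were lower, by 1.70-fold in the fit (log2 fold change -0.77 ± 0.095; edgeR adjusted p = 3.60e-05).

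Atg16l1 went the other way, from 37.3, 37.7 and 37.8 CPM in control to 62.7, 62.5 and 53.0 CPM in GM-CSF libraries. The control libraries lay within a very narrow range, and the rise was 1.59-fold (log2 fold change 0.67 ± 0.093; edgeR adjusted p = 8.60e-05). Its paralog Atg16l2 was at 31.4 ± 1.09 and 31.5 ± 3.86 CPM and did not pass (log2 fold change 0.013 ± 0.11, adjusted p = 0.923), and it turned negative with upper quartile scaling (-0.10) or without GM-CSF replicate 3 (-0.061) or control replicate 3 (-0.022).

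Atg3 had the highest CPM of the group, 280.1, 257 and 262 CPM in control and 248, 239 and 252 CPM in GM-CSF libraries. The ranges did not overlap but lay close together, and the log2 fold change of -0.11 ± 0.071 did not pass (edgeR adjusted p = 0.213), though it did with upper quartile scaling (-0.22). Atg5 was at 80.3, 72.2 and 75.4 CPM and 73.4, 75.8 and 65.5 CPM, with overlap and no call (log2 fold change -0.081 ± 0.087; edgeR adjusted p = 0.432). Atg12 fell slightly (log2 fold change -0.26 ± 0.080; edgeR adjusted p = 0.0159), a call that ended without control replicate 1 (-0.24) or 2 (-0.23). Atg10 did not pass (-0.26 ± 0.16, adjusted p = 0.163), but it did without GM-CSF replicate 3 (-0.41) and with upper quartile scaling (-0.38).

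The ATG4 proteases trim newly made LC3 and GABARAP and also release them from lipid. Of their 4 genes, 1 rose, 2 fell and 1 did not pass. Atg4c, on chromosome 4 at 99193934 to 99259787, was at 27.2, 23.9 and 19.8 CPM in control and 9.71, 8.77 and 7.08 CPM in GM-CSF libraries. This was the largest fall among the 34 genes, 2.77-fold (log2 fold change -1.47 ± 0.17; edgeR adjusted p = 1.91e-05), and no GM-CSF library reached the lowest control library. Atg4b, whose product is the main LC3 protease, rose slightly from 68.1 ± 3.81 to 85.9 ± 3.57 CPM (log2 fold change 0.34 ± 0.082; edgeR adjusted p = 0.00365; 0.22 with upper quartile scaling).

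Atg4d was at 101, 84.1 and 88.2 CPM in control and 71.7, 68.0 and 85.3 CPM in GM-CSF libraries, where GM-CSF replicate 3 overlapped the controls. Its small fall (log2 fold change -0.27 ± 0.11; edgeR adjusted p = 0.0463) was lost when any of 4 libraries was left out, GM-CSF replicate 1 (-0.25), GM-CSF replicate 2 (-0.20), control replicate 1 (-0.18) and control replicate 3 (-0.31). Atg4a was low, at 2.94 ± 0.336 and 2.37 ± 0.3997 CPM, and did not pass (-0.31 ± 0.25, adjusted p = 0.301).

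The ULK complex joins a kinase, ULK1 or ULK2, to the scaffold proteins ATG13, ATG101 and RB1CC1, and is held in check by the nutrient sensor mTORC1. Of its 4 members, 1 rose, 1 fell and the 2 kinase genes did not pass. Ulk1 was at 21.6, 25.5 and 26.3 CPM in control and 13.9, 24.4 and 27.1 CPM in GM-CSF libraries. GM-CSF replicate 1 was well below the other libraries, and without it the log2 fold change turned from -0.16 ± 0.20 (edgeR adjusted p = 0.515) to 0.075. Ulk2 showed the same low library, at 34.0, 37.5 and 31.9 CPM in control and 16.6, 28.6 and 32.7 CPM in GM-CSF libraries. It did not pass (log2 fold change -0.40 ± 0.20; edgeR adjusted p = 0.0977). Without the low GM-CSF replicate 1, the log2 fold change of Ulk2 was -0.17 and did not pass either. It passed without GM-CSF replicate 3 (-0.60), with upper quartile scaling (-0.52), without the filter on low counts (-0.41) and with DESeq2 (-0.41).

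The scaffold genes went in opposite directions. Atg101 was at 133, 118 and 138 CPM in control and 84.6, 87.2 and 101 CPM in GM-CSF libraries, a fall without overlap (log2 fold change -0.50 ± 0.092; edgeR adjusted p = 6.16e-04). Atg13, whose product binds ATG101 directly, rose without overlap from 57.4 ± 8.54 to 78.7 ± 0.828 CPM (log2 fold change 0.46 ± 0.10; edgeR adjusted p = 0.00242).

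In the lipid kinase complex, PIK3C3 makes PI3P, beclin 1 is its regulatory partner, and ATG14 directs the complex to sites of autophagosome formation. Of these 3 genes, Atg14 fell and the others did not pass. Becn1 was at 141, 153 and 149.98 CPM in control and 165, 164 and 163 CPM in GM-CSF libraries, ranges that did not overlap, but the difference was small (log2 fold change 0.16 ± 0.067; edgeR adjusted p = 0.0601). Its exons share 3104 bases with Cntd1 on the other strand, a cyclin-domain gene whose mean level was 2.42 CPM without and 1.08 CPM with GM-CSF. Pik3c3 was at 52.8, 53.7 and 49.6 CPM and 45.2, 47.2 and 47.5 CPM, again without overlap (log2 fold change -0.15 ± 0.083; edgeR adjusted p = 0.133), and passed with upper quartile scaling alone (-0.27).

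Atg14 was at 21.7, 24.7 and 21.4 CPM in control and 12.3, 13.6 and 9.92 CPM in GM-CSF libraries. Every GM-CSF library was lower, by 1.89-fold in the fit (log2 fold change -0.92 ± 0.14; edgeR adjusted p = 1.88e-04). Rubcn, which encodes rubicon, an inhibitor of the PIK3C3 complex in autophagy that also takes part in LC3-associated phagocytosis, was counted under its older symbol at 31.6, 34.0 and 34.6 CPM in control and 13.6, 15.6 and 16.3 CPM in GM-CSF libraries. It fell by 2.19-fold without overlap (log2 fold change -1.13 ± 0.11; edgeR adjusted p = 5.34e-06), while Fyttd1, which shares 171 exon bases with it on the other strand, rose (log2 fold change 0.88). Thus a gene for a promoting and a gene for an inhibiting partner of this kinase were both lower.

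Among the genes for lipid supply and PI3P reading, 2 of 6 rose, 1 fell and 3 did not pass. ATG9 proteins move lipids between the leaflets of vesicles that seed the membrane. Atg9b, the rarer form, was at 1.17, 1.03 and 0.914 CPM in control and 4.77, 3.24 and 2.19 CPM in GM-CSF libraries. It had the largest fitted rise of the 34 genes (log2 fold change 1.70 ± 0.35; edgeR adjusted p = 0.00126) at the lowest level, with 19 to 28 reads per control and 47 to 80 reads per GM-CSF library. Its exons overlap 294 bases of Nos3, a nitric oxide synthase gene on the other strand that rose as well (log2 fold change 2.22; edgeR adjusted p = 0.00100). Whether the counting used strand is not given in the sources used here, so reads within these shared 294 bases cannot be assigned for certain. The merged exons of Atg9b span 3946 bases, and counts by gene do not show how many reads fell in the shared part.

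Atg9a, the widely expressed form, was at 97.4, 99.2 and 97.2 CPM in control and 86.9, 94.2 and 91.4 CPM in GM-CSF libraries. These ranges were close but did not overlap, and the log2 fold change of -0.10 ± 0.071 did not pass (edgeR adjusted p = 0.225), except with upper quartile scaling (-0.22). The lipid transfer genes Atg2a and Atg2b did not pass (0.049 ± 0.11 and 0.20 ± 0.13; edgeR adjusted p = 0.700 and 0.189), and Atg2a turned negative with upper quartile scaling (-0.069).

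The PI3P readers moved apart by small amounts. Wipi1 fell from 19.2 ± 3.06 to 14.4 ± 0.405 CPM (log2 fold change -0.40 ± 0.13; edgeR adjusted p = 0.0219), a call lost without GM-CSF replicate 2 (-0.41) or control replicate 2 (-0.41) or 3 (-0.30). Wipi2, whose product brings ATG16L1 to the membrane, went from 74.2 ± 7.12 to 85.7 ± 3.92 CPM with overlap. It passed only just (log2 fold change 0.22 ± 0.087; edgeR adjusted p = 0.0493), and 10 of the 15 alternative settings ended the call, among them upper quartile scaling (0.098) and leaving out GM-CSF replicate 2 (0.22), GM-CSF replicate 3 (0.20), control replicate 1 (0.17) and control replicate 3 (0.18).

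Ratios of reads between related genes within a library do not depend on how libraries are scaled, and 12 such ratios were formed after the counts had been seen. For Gabarapl1 there were 4.34, 5.66 and 5.71 reads per 100 reads of Gabarap in control replicates 1 to 3 and 13.2, 12.8 and 11.6 in GM-CSF replicates 1 to 3. Map1lc3a had 4.24, 4.92 and 6.39 reads per 100 of Map1lc3b in control and 9.45, 8.47 and 9.61 in GM-CSF libraries. The minor form gained on the major one in all GM-CSF libraries for both pairs.

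For Atg4c there were 38.2, 34.5 and 31.0 reads per 100 of Atg4b in control and 11.2, 9.88 and 8.64 in GM-CSF libraries, and Atg16l1 had 115, 121 and 124 per 100 of Atg16l2 in control and 229.7, 193 and 152 in GM-CSF libraries. Sqstm1 had 92.7, 101 and 103 reads per 100 of Map1lc3b in control and 175, 178 and 166 in GM-CSF libraries. Ulk1 had 83.8, 85.3 and 82.8 reads per 100 of Ulk2 in GM-CSF libraries and 63.4, 68.0 and 82.2 in control libraries, so the low GM-CSF replicate 1 was low in both kinase genes alike.

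Means over the 3 libraries of a group went from 1.06 to 3.78 for Atg9b per 100 reads of Atg9a, and from 25.9 to 16.8 for Wipi1 per 100 of Wipi2. Per 100 reads of Atg4b, they went from 134 to 87.7 for Atg4d and from 4.30 to 2.75 for Atg4a.

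The ranges of the groups did not overlap in 10 of the 12 ratios. Among all single genes tested, 69.5% did not overlap, and no such share was taken for ratios. Several ratios share a gene, so they are not independent. For Ulk1 against Ulk2 the gap was slight, from 82.2 in control replicate 3 to 82.8 in GM-CSF replicate 3. Each of the 10 ratios without overlap had an exact two-sided permutation p of 0.1, the smallest that 3 against 3 libraries can give. After adjustment over the 12 it was 0.12. The exceptions were Atg2a against Atg2b (exact p = 0.6) and Gabarapl2 against Gabarap (exact p = 0.2).

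**Figure D3:**
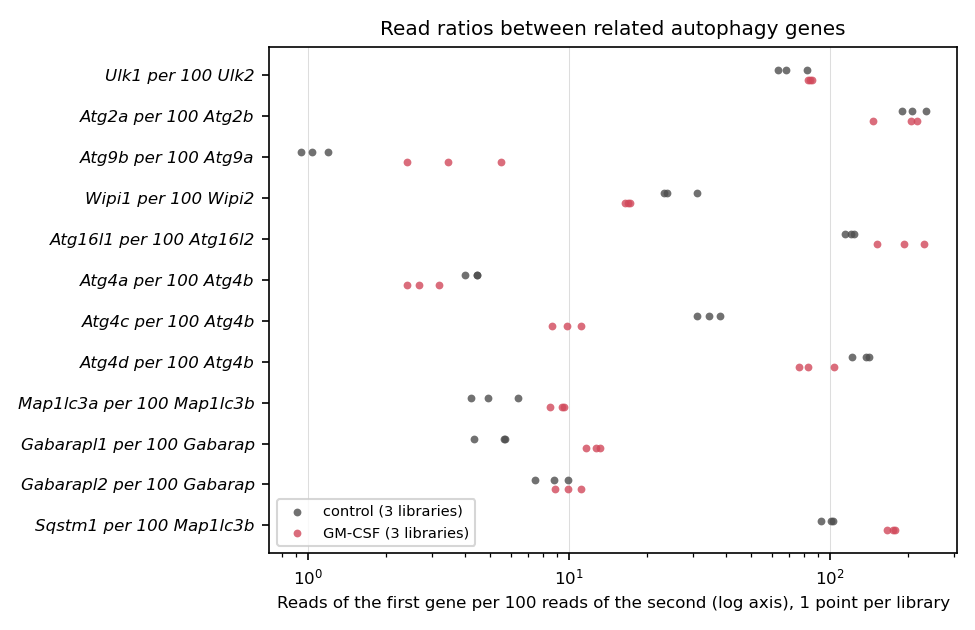
Reads of one autophagy gene per 100 reads of a related gene in each library, on a log axis, with control libraries in grey and GM-CSF libraries in red. Atg4c against Atg4b moves left, from 38.2, 34.5 and 31.0 to 11.2, 9.88 and 8.64, and Gabarapl1 against Gabarap moves right, from 4.34, 5.66 and 5.71 to 13.2, 12.8 and 11.6.

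Levels can be set against each other between genes only per length, and here CPM per kilobase of the gene's merged exons was used. In control libraries Gabarap was highest at 193 ± 9.06 CPM per kilobase (SD, n = 3). Atg3 (84.4 ± 3.88), Sqstm1 (81.8 ± 6.55) and Atg101 (81.2 ± 6.29) followed and did not differ beyond their spread, and Atg9b was lowest at 0.263 ± 0.0321. In GM-CSF libraries Gabarap (204 ± 21.00) and Sqstm1 (149 ± 5.57) led, ahead of Atg3 (78.0 ± 2.11) and Atg101 (57.0 ± 5.62). The order depends on the length used. Per kilobase of the median annotated transcript, control levels were 423 for Gabarap, 288 for Sqstm1, 269.9 for Tax1bp1 and 214 for Atg101. Atg7 (196), Becn1 (188) and Atg4b (133) came next, ahead of Atg3 (129), and Atg9b stood at 0.565. Gabarap thus stayed first and Atg9b last, while Atg3 went from above Sqstm1 and Atg101 to below both.

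TFEB and its relatives TFE3, MITF and TFEC are transcription factors, of which TFEB is best known for driving lysosomal and autophagy genes. FOXO factors do the same under starvation, and ZKSCAN3 is known as a repressor. Of the 8 genes in this list, 4 rose, 2 fell and 2 did not pass, beside 64.0% of all genes tested that changed. Tfeb was at 115, 115 and 113 CPM in control and 40.6, 42.5 and 52.8 CPM in GM-CSF libraries. It fell by 2.501-fold without overlap (log2 fold change -1.32 ± 0.10; edgeR adjusted p = 8.95e-07).

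The relatives of Tfeb all rose without overlap (ranges did not overlap in 69.5% of all genes tested). Tfec, a family member found mainly in myeloid cells, was at 35.0, 29.2 and 32.7 CPM in control and 206, 209 and 187 CPM in GM-CSF libraries, a 6.24-fold rise (log2 fold change 2.64 ± 0.092; edgeR adjusted p = 2.57e-09). Mitf went from 11.96, 11.4 and 9.72 CPM to 34.4, 34.4 and 29.3 CPM (log2 fold change 1.57 ± 0.13; edgeR adjusted p = 1.54e-06) and Tfe3 from 92.1, 95.6 and 102 CPM to 168, 163 and 179 CPM (0.82 ± 0.074; 2.92e-06). Among the FOXO genes, Foxo1 fell (-0.59 ± 0.15; edgeR adjusted p = 0.00529) and Foxo3 rose (0.70 ± 0.20; 0.0110). Foxo4 (-0.94 ± 0.42; 0.0702), at about 1 CPM or less in most libraries, and Zkscan3 (-0.087 ± 0.10; 0.466) did not pass, but Foxo4 did without GM-CSF replicate 3 (-1.29) and with upper quartile scaling (-1.06).

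**Figure D4:**
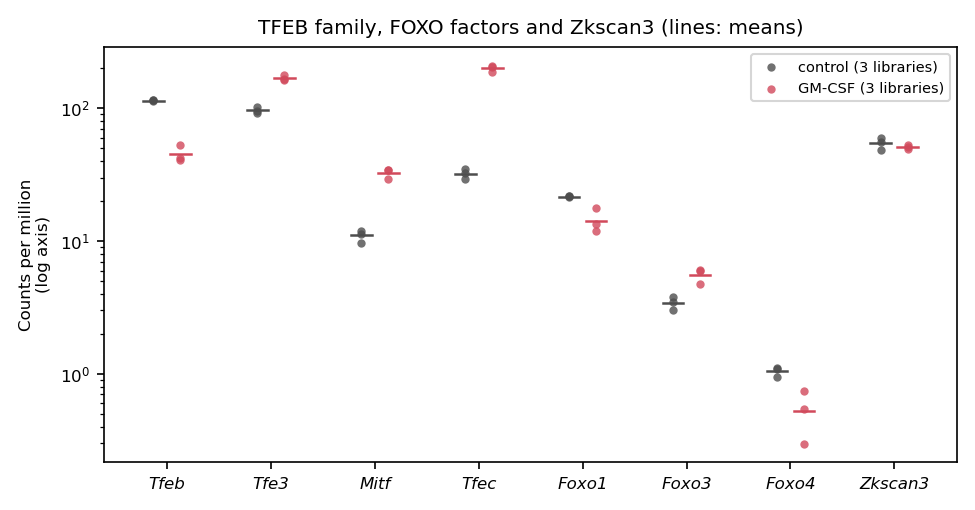
Level of the TFEB family, the FOXO genes and Zkscan3 in each library, in CPM on a log axis, with control libraries in grey, GM-CSF libraries in red and short lines at the means. Tfeb falls from 114 ± 1.10 to 45.3 ± 6.53 CPM while Tfe3, Mitf and Tfec rise, Tfec from 32.3 ± 2.90 to 201 ± 11.6 CPM.

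TFEB and its relatives bind E-boxes, with the letters CACGTG, and favour the longer core TCACGTG found in lysosomal genes. Promoter windows from RefSeq (GRCm38.p6, from 250 bases before to 50 after the start) were matched for 29 of the 34 members, in 33 windows, and for Rubcn. On either strand, TCACGTG lay in windows of 3 members, Atg3, Atg7 and Atg14, and in one for Rubcn, against 3.77% of all 32851 windows. The shorter CACGTG, which the longer core contains, lay in those and in Atg5, against 7.15% of all windows. The windows are shown around the match for 3 of these genes because 2 of them fell and Atg3 did not pass, with the matched letters in capitals, in the direction of the gene, cut to lie ahead of the start and outside annotated exons. A match is a description of letters and shows no binding.
Atg7: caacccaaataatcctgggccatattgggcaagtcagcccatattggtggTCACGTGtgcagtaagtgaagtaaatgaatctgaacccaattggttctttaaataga
Atg3: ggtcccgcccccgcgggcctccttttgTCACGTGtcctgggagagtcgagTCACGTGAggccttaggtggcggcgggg
Rubcn: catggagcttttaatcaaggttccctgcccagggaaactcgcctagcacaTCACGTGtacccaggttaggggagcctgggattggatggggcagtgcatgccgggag

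The Atg7 stretch is chr6:114670913-114671019 on the plus strand, ahead of a RefSeq start that lies inside the longer GENCODE gene. The Atg3 stretch is chr16:45158707-45158784 on the plus strand, just ahead of the annotated gene, and holds the core 3 times over, counting both strands and the overlapping pair at its second site. The Rubcn stretch is chr16:32868399-32868505 on the minus strand, ahead of the more internal of 2 RefSeq starts. In Atg14 the match spans the start itself. Other letters searched were TGACNNNGC, the core of the antioxidant response element (4 members, Atg13, Map1lc3b, Tax1bp1 and Ulk2, against 12.4% of all windows), and TTCNNNGAA, the form bound by STAT factors, among them STAT5 downstream of the GM-CSF receptor (4 members, Gabarap, Gabarapl1, Nbr1 and Wipi1, against 8.30%). The FOXO letters GTAAACA were in none of the 33 windows, against 3.65% of all. Of the 4 genes with the STAT letters, Gabarapl1 rose, Wipi1 fell, and Gabarap and Nbr1 did not pass.

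Other lists cover parts of the pathway that the symbols above leave out. Each is given by its counts beside the 64.0% of all genes that changed. Of 32 genes of nutrient and energy signalling that were tested, 13 rose, 11 fell and 8 did not pass (median log2 fold change -0.10). The largest changes were in Castor2, listed as Gatsl2, whose product belongs to the family of the arginine sensor CASTOR1 (7.95 ± 0.584 to 31.8 ± 4.89 CPM; log2 fold change 2.01 ± 0.14), and Sesn2, a stress-induced leucine sensor that restrains mTORC1 (23.4 ± 0.611 to 87.6 ± 6.23 CPM; 1.91 ± 0.092). Its relatives went the other way. Sesn1 fell from 32.0 ± 3.01 to 10.5 ± 1.74 CPM (-1.59 ± 0.15) and the rare Sesn3 from 1.05 ± 0.0389 to 0.342 ± 0.226 CPM (-1.64 ± 0.48). Both were named after their values were seen.

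Of 21 further partners of the ULK and lipid kinase complexes and of the early membrane, 6 rose, 4 fell and 11 did not pass (median 0.09); 3 rose without control replicate 3. Rubcnl, listed as 5031414D18Rik and related to rubicon, fell from 26.3 ± 2.29 to 4.86 ± 0.798 CPM (log2 fold change -2.42 ± 0.16). Snx30, a sorting nexin gene, fell from 52.3 ± 8.90 to 23.4 ± 2.44 CPM (-1.15 ± 0.13). The other 2 that fell, named after their values were seen, were Tecpr1 (-0.88) and Uvrag (-0.33), whose product replaces ATG14 in a second form of the lipid kinase complex. The scaffold gene Rb1cc1 (0.092 ± 0.11) and the kinase subunit gene Pik3r4 (-0.082 ± 0.15), also named after their values were seen, did not pass.

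Of 20 genes for fusion of autophagosomes with lysosomes, 4 rose, 9 fell and 7 did not pass (median -0.09). Tmem175, a lysosomal ion channel gene, fell from 43.8 ± 6.66 to 20.0 ± 1.77 CPM (log2 fold change -1.12 ± 0.13). Within the fusion SNARE set, Snap29 rose from 41.2 ± 2.70 to 74.5 ± 15.9 CPM (0.86 ± 0.14), while its partners Stx17 (-0.51 ± 0.11) and Vamp8 (-0.26 ± 0.073) fell. The others that rose were Plekhm2 (0.86; 0.45 without GM-CSF replicate 3, and not called without control replicate 1, 0.82, or 3, 0.74), Vps18 (0.53) and Rab7 (0.24; not called with upper quartile scaling, 0.12). These 3, Stx17 and Vamp8 were named after their values were seen.

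Of 23 genes for other selective receptors and mitophagy, 4 rose, 9 fell and 10 did not pass (median -0.17). Trim21, an interferon-inducible antibody receptor and ubiquitin ligase gene, fell from 43.2 ± 2.88 to 8.68 ± 1.33 CPM (log2 fold change -2.31 ± 0.13), and Ccpg1, a receptor gene for the endoplasmic reticulum, from 162 ± 21.1 to 42.1 ± 6.43 CPM (-1.94 ± 0.12). The 4 that rose, named after their values were seen, were Retreg1 (0.96, listed as Fam134b), Tollip (0.86), Phb2 (0.85) and Rtn3 (0.28; 0.16 with upper quartile scaling).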

How the data were processed

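The authors deposited raw counts by gene symbol, in 1 column for each sample, which was identified through its title. HTSeq 0.6.1p1, STAR 2.5.2a, edgeR, Trim Galore 0.4.4 and mm10 appear in the submitters' processing notes, without roles. The annotation, and whether counting used strand, were not given in the sources used here. Left out were reads without a unique position (18.0% to 19.6%), outside genes (7.82% to 9.72%) or ambiguous (1.44% to 1.53%), so genes with near-identical copies may be undercounted. A count of 0 allows up to 3 reads, or 0.119 to 0.180 CPM, for counting error only.

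The test was edgeR's (version 4.0.16, R 4.3.3; TMM, filterByExpr with a minimum count of 10 and total of 15, two-sided quasi-likelihood F test, group as the only term), with Benjamini-Hochberg adjustment over 11731 genes and a threshold of 0.05. Changed, rose and fell are used only of genes past it. Each SE is the size of the log2 fold change over the root of F. CPM is on the total of gene counts. On simulated counts (11613 genes), 85.9% of 99 genes changed 2-fold were recovered. That figure does not cover smaller changes, and the median size of the log2 fold change among members was 0.27. Far fewer genes were changed in that simulation than the 64.0% called in the data, so recovery in the data may differ. Exon lengths and positions come from GENCODE M21 (GRCm38, of which mm10 is another name). Exon overlaps with other genes are not limited to those described above. Among them are Sqstm1 with Mrnip (580 bases), Gabarapl1 with 1700101I11Rik (570) and Atg4d with Kri1 (1405), each on the other strand. Atg9a shares 1832 bases with Gm29253 on the same strand. Their effect on the counts was not tested. Alternatives were 3 other scalings, 2 other filters, a robust prior, a replicate block, DESeq2 1.42.0, limma-voom (limma 3.58.1) and leaving out each library.

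The members and lists were chosen with earlier results of these data known. Values in every library are given for members past the threshold and at least 2-fold changed, the member with the highest CPM of each role and 15 key genes; of each further list the 2 members with the largest change past the threshold at a mean log2 CPM of at least 1 are named, and all tested TFEB family and FOXO genes. The values of Rubcn and Atg14 in every library were added after they were seen.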

Additional observations from a re-analysis of the deposited data

How the results depend on the processing

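Of 510 values of the 34 members under 15 alternative settings, 472 kept their direction and their side of the threshold, 19 lost the call, 10 gained one and 9 turned sign. Of the 17 calls, 13 held under all 15 settings; those of Atg12, Atg4d, Wipi1 and Wipi2 did not. Of the 9 turns, 6 came with upper quartile scaling, which put the median of all genes at -0.11: Atg16l2 (-0.10), Atg2a (-0.069), Gabarap (-0.033), Map1lc3b (-0.052), Nbr1 (-0.023) and Tax1bp1 (-0.028). All 6 lay above that median. The others were Atg16l2 without GM-CSF replicate 3 (-0.061) or control replicate 3 (-0.022), and Ulk1 without GM-CSF replicate 1 (0.075). With 1 library left out, the log2 fold change of Atg16l2 ranged from -0.061 to 0.097 and the log2 fold change of Ulk1 from -0.34 to 0.075. None of these 9 was called before or after.

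The number of members that rose was 8 or 9 under all settings. The number that fell was 8 to 9 under the settings that kept all libraries, except 13 with upper quartile scaling, and 6 to 10 when 1 library was left out. Over all genes tested, 3660 fell, 4318 with upper quartile scaling and 3241 to 3768 when 1 library was left out. Among the further partners of the ULK and lipid kinase complexes, the number that rose was 3 with upper quartile scaling and 3 to 8 when 1 library was left out; the cause was not tested. With the replicate number as a block, 9 members rose and 8 fell. Correlations of deviations were 0.073, 0.0098 and 0.0038 for same-numbered libraries and -0.047 to 0.030 for differently numbered ones. All were close to none, so the numbers were not taken to pair the samples. With 3 libraries in each group this check cannot exclude a pairing. Merged exon length was 1.2 to 16.1 times the median transcript length, which limits comparison of levels between genes. Low counts limit Atg9b and Atg4a.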
